A study of Mus musculus with 1012 samples.

Results

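The genes described here are 9 members of the transforming growth factor-beta (TGF-beta) system, out of 30452 features in the count table. They were listed by name, but with earlier results of these data known. Shares of members set beside shares of all genes are therefore descriptions. They comprise the 3 TGF-beta ligands (Tgfb1, Tgfb2 and Tgfb3), the activin subunit gene Inhba, the latency gene Ltbp1, the receptors Tgfbr1, Tgfbr2 and Tgfbr3, and the matrix target Tgfbi. All 9 were in the table and all 9 passed the filter on low counts in both techniques. Each library holds the reads of 1 mouse cell. Live-seq profiles cytoplasm drawn from a living cell through a hollow microscopic probe, whereas scRNA-seq lyses the whole cell. The study asked whether such biopsies tell cell types and states apart and leave the sampled cell little altered.

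IBA cells are an immortalised brown preadipocyte line from the stromal vascular fraction of the interscapular brown fat of young male C57BL6/J mice. ASPC are primary adipose stem and progenitor cells from the subcutaneous fat of female C57BL/6J mice aged 7 to 10 weeks, taken before induction (ASPC_Pre) or after 2 days in an adipogenic cocktail (ASPC_Post, labelled DMIR_treated). A subset of the ASPC carried a lentiviral GFP barcode. RAW cells are the macrophage-like line RAW264.7, here the single clone RAW-G9, which holds an mCherry reporter under the Tnf promoter and an EGFP-Rela fusion. Wild-type RAW264.7 cells were present only in the Live-seq batch labelled 5Reseq, with 11 LPS cells and 1 mock cell. RAW_LPS cells received lipopolysaccharide and were sampled 4 to 5 h later, at 100 ng/ml in the methods and 40 ng/ul in the series text. RAW_Mock cells received PBS. A further set of IBA cells was lysed for scRNA-seq at 0, 1 or 4 h after the cytoplasm had been drawn, and the methods describe the 0 h cells as controls that were not probed.

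The scRNA-seq cells came in batches 8_8, 9_1 and scRNA, with 16, 46 and 95 RAW_Mock cells, 15, 46 and 88 RAW_LPS cells and 15, 45 and 93 IBA cells, beside 16 and 44 ASPC_Pre cells in the first 2 of these batches and 35 ASPC_Post cells in batch 9_1. Live-seq gave 8, 20, 63 and 12 RAW_Mock cells in batches 6, 7, 8_8 and 9_4. The other Live-seq states were RAW_LPS (50 cells over 5 batches), IBA (44 over 3), ASPC_Pre (61 over 2) and ASPC_Post (37, all in batch 9_4). At 0, 1 and 4 h after sampling 70, 49 and 43 IBA cells were lysed. Total counts per library ran from 38451 to 2671609, with medians of 467677 in scRNA-seq, 506778.5 in Live-seq and 506266 after sampling. A single cell is no replicate, so the counts of a state were added within each labelled batch of at least 3 cells, and levels are counts scaled to a common library total (CPM, counts per 1000000 kept counts) of these sums. Nothing in the labels says that batches were separate cultures or animals, so the p-values measure the spread between batches only. Macrophage genes (7 genes, including Csf1r, Cd68 and Lyz2) summed to 2030 to 28200 CPM in RAW sums, and mesenchymal genes (7 genes, including Pdgfra and Col1a2) to 5.25 CPM or less there. In IBA and ASPC sums the mesenchymal genes reached 1220 to 16100 CPM. One scRNA-seq library labelled IBA, in batch 9_1, went against its label, with 29400 CPM of macrophage genes and 0 CPM of mesenchymal genes. It held 30 counts of Tgfbr1 and 198 of Tgfbr2 and 0 of the other 7 members. Leaving it out moved Tgfbr2 in that sum from 119.7 to 115.5 CPM and Tgfbi from 430 to 438 CPM, and the number of members that passed each scRNA-seq test was the same without it (7, 3 and 0).

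TGF-beta ligands are secreted as latent complexes in which a latent TGF-beta binding protein such as Ltbp1 tethers the ligand to the matrix. Once freed, the ligand binds Tgfbr2, which phosphorylates Tgfbr1, and Tgfbr1 phosphorylates SMAD proteins that enter the nucleus. Tgfbr3, betaglycan, presents ligand and is best known for its high affinity for TGF-beta 2. Inhba encodes the subunit that forms activin A, which signals through activin receptors and the same SMADs. In fat, TGF-beta and activin are known as brakes on the differentiation of preadipocytes, and in macrophages Tgfb1 is the customary isoform.

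The first comparison asked which members separate the mesenchymal cells (the mean of IBA and ASPC_Pre) from RAW_Mock cells. In scRNA-seq 7 of 9 members passed the test, an FDR under 0.05 with more than a 2-fold change in edgeR's quasi-likelihood test with batch in the model. Of these, 6 were higher in mesenchymal cells and 1, Tgfb1, was lower. Tgfbi is 1 of the 6, but its level was mostly that of IBA, at 59.6 to 430 CPM against 1.7 and 1.85 CPM in ASPC_Pre. Of all genes tested, 38.2% passed, so the groups differed at many genes. The median log2 difference was 9.73 over the members, with the RAW_Mock level of 5 of them resting on 8 reads or fewer, and 0.2 over all genes tested. In Live-seq 3 of 9 members passed, all higher in mesenchymal cells, against 3.31% of all genes, and 6 had an unadjusted p under 0.05. Tgfbi, with 8073 mesenchymal reads and 0 in RAW_Mock, is among those that did not pass, but its Live-seq fit gave no standard error. No Live-seq median is given because 5 of 9 members had no read in RAW_Mock.

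Tgfb1 (ENSMUSG00000002603, chr7:25687002-25705077 in mm10, plus strand) was the leading TGF-beta ligand of the macrophage line. Its scRNA-seq level in RAW_Mock was 17.1 CPM in batch 8_8, 21.1 in batch 9_1 and 30.4 in the batch labelled scRNA. The 5 mesenchymal sums held 3.54, 0.985 and 7.38 CPM in IBA cells and 3.65 and 5.96 CPM in ASPC_Pre. Every RAW_Mock sum therefore lay above every mesenchymal sum. On the log2 scale Tgfb1 fell by 2.04 in mesenchymal cells (SE 0.47, adjusted p = 0.00675). In Live-seq the RAW_Mock sums held 0 CPM in batch 6, 22.9 in batch 7, 8.41 in batch 8_8 and 5.37 in batch 9_4, and the mesenchymal sums held 0 to 0.88 CPM. These ranges met at 0 and the Live-seq difference did not pass (adjusted p = 0.279).

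Tgfb2 (ENSMUSG00000039239, chr1:186622792-186705989, minus strand) was counted almost only in mesenchymal cells. The scRNA-seq IBA sums held 24.8, 17.3 and 40.2 CPM in batches 8_8, 9_1 and scRNA, and ASPC_Pre held 20.9 and 16.8 CPM in batches 8_8 and 9_1. Over all RAW_Mock cells 1 read was counted, and over all RAW_LPS cells none. The CPM ratio to RAW_Mock over pooled cells was 1630 (95% counting interval 291 to 64200), and the fitted difference passed the test (adjusted p = 9.16e-05). In Live-seq Tgfb2 was 15.5 to 36 CPM in IBA and 15.3 to 46.1 CPM in ASPC_Pre and was not counted in a RAW cell. That makes it at least 274-fold higher than RAW_Mock, taking 3 counts over the group as the floor, although the test did not pass (adjusted p = 0.128). Tgfb2 shares 124 exon bases with the antisense gene Gm29491, which is also in the table. The counting ignored strand and gave a read that overlaps both genes to neither, so reads there are missing from the Tgfb2 counts.

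Tgfb3 (ENSMUSG00000021253, chr12:86056745-86079041, minus strand) was the TGF-beta isoform with the highest level per length in ASPC. In scRNA-seq it was 84.4 and 94.1 CPM in the 2 ASPC_Pre sums and 18.8, 22.2 and 33.5 CPM in the IBA sums. RAW_Mock sums held 0, 0.274 and 1.54 CPM and RAW_LPS sums 0, 0.687 and 1.93 CPM. The mesenchymal level was 7.1 higher on the log2 scale than RAW_Mock (SE 0.69, adjusted p = 7.57e-05). Between the 2 mesenchymal cell types, IBA cells held less, with no overlap of the sums. On the log2 scale Tgfb3 fell by 2.71 relative to ASPC_Pre (SE 0.58, adjusted p = 0.021). Without batch 9_1 the adjusted p was 0.219 and without the batch labelled scRNA it was 0.0705, at log2 differences of -2.94 and -2.41. Live-seq gave 160.87 and 102.9 CPM in ASPC_Pre in batches 8_8 and 9_4 against 42.7, 2.08 and 7.9 CPM in IBA in batches 7, 8_8 and 9_4, again with no overlap, and did not pass (adjusted p = 1.0). Of the ASPC_Pre reads in batch 8_8 of Live-seq, 87.4% came from 1 cell. Tgfb3 shares 420 exon bases with antisense genes that are not in the table.

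Per kilobase of exon, where levels of different genes can be compared, the 3 ligands divided the cell types. Tgfb1 made up 96.2% of their summed CPM per kb in scRNA-seq RAW_Mock and 96.4% in RAW_LPS, and 100% of it in both RAW states of Live-seq. In IBA cells Tgfb3 held 57% and Tgfb2 36.8% in scRNA-seq, and 52.8% and 46.9% in Live-seq. In ASPC_Pre Tgfb3 held 86.2% and 87.8% in the 2 techniques. The summed ligand level was 4.71 CPM per kb in RAW_Mock, 12.9 in IBA and 30.6 in ASPC_Pre in scRNA-seq.

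The lead of Tgfb3 in IBA cells was not shared by all batches. In scRNA-seq it was 5.55, 6.56 and 9.9 CPM per kb in batches 8_8, 9_1 and scRNA, above the 4.28, 2.98 and 6.95 of Tgfb2. In Live-seq it was above Tgfb2 in batch 7, at 12.6 against 4.93 CPM per kb, and below it in batch 8_8 (0.616 against 2.68) and batch 9_4 (2.33 against 6.22). In the IBA cells of batch 8_1, Tgfb2 held 58.8%, 66.8% and 71.3% of the 3 ligands at 0, 1 and 4 h, and Tgfb3 held 19.9%, 20.7% and 16.8%. The isoform that led in IBA cells thus differed between sums, also among cells that were not probed, and in batch 8_8 between the 2 techniques. In Live-seq the order in IBA rested on few cells. All 67 Tgfb2 reads of batch 8_8 came from 1 cell, and so did all 9 Tgfb3 reads. In batch 7, 1 cell gave 91.3% of the Tgfb2 reads and 1 cell 80.4% of the Tgfb3 reads. In batch 9_4 these shares were 33.6% and 87.1%. In ASPC, Tgfb3 led in every sum.

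**Figure D1:**
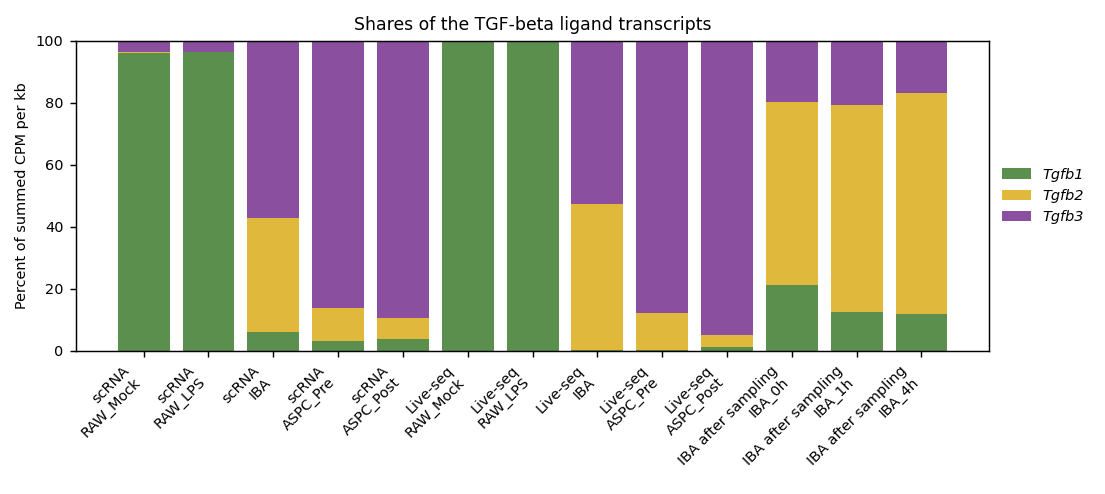
Stacked bars give the percent of the summed CPM per kb of Tgfb1, Tgfb2 and Tgfb3 in 5 states of scRNA-seq and of Live-seq, from the mean over batch sums, and in IBA cells of batch 8_1 at 0, 1 and 4 h. Tgfb1 fills 96.2% or more of the bar in RAW states, Tgfb3 leads in ASPC states and in IBA cells of the first 10 bars, and Tgfb2 leads in batch 8_1, with up to 71.3%.

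The sequence just before the start site differed between Tgfb1 and the ligand genes Tgfb2 and Inhba. Their promoters and that of the latency gene Ltbp1 are shown, 4 in all. Each is the 150 bases before the RefSeq start site in GRCm38.p6, written 5′ to 3′ on the gene's strand. Capitals mark the TATA box TATAAA, the GC box GGGCGG and the cAMP response element TGACGTCA, each searched on both strands, and these motifs share no bases in the windows shown. The Tgfb1 window is chr7:25686852-25687001, that of Tgfb2 chr1:186705990-186706139, that of Inhba chr13:16011701-16011850 and that of Ltbp1 chr17:75005379-75005528.
Tgfb1: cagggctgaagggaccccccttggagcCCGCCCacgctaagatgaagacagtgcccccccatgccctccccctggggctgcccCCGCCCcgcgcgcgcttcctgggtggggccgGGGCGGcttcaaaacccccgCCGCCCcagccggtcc
Tgfb2: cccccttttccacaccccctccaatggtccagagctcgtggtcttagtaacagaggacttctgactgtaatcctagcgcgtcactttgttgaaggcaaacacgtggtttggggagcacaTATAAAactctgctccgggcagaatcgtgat
Inhba: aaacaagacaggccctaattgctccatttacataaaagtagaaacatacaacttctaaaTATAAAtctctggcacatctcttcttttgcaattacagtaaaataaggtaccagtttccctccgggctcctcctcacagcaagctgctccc
Ltbp1: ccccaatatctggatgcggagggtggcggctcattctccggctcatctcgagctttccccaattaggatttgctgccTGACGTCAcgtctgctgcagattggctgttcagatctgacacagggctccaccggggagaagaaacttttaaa
Tgfb1 had 4 GC boxes, 3 of them on the opposite strand, no TATA box and 76% G and C. Tgfb2 had a TATA box at 31 to 26 bases before its start and no GC box at 51.3% G and C, and Inhba had one at 91 to 86 bases before its start at 40.7%. Ltbp1 had the response element at 73 to 66 bases before its start, and its second start site, chr17:75178631-75178780, held none of the 3 motifs. Of 32851 mouse promoter windows of this length, 7.57% held a TATA box, 28.6% a GC box and 1.36% the response element, with a median of 54% G and C. Of the 9 members, 7 had an entry with 9 start sites in all. Tgfb3 and Tgfbr3 had none, so the contrast of ligands leaves out Tgfb3. Tgfbi, almost without reads in RAW cells, had 1 GC box at 72% G and C, so a GC box was not limited to Tgfb1 and Tgfbr1. Among the receptors, Tgfbr1 had 2 GC boxes before its first start site at 79.3% G and C and Tgfbr2 had none of the 3 motifs at 66%. A match is a description of letters and was not tested for use by any factor.

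Inhba (ENSMUSG00000041324, chr13:16011851-16031621, plus strand) had the highest state mean per length of the 4 ligand genes in IBA and ASPC_Pre, at 19.6 and 71.9 CPM per kb in scRNA-seq and 16.2 and 43.8 in Live-seq. The ASPC_Pre sums held 502 and 417 CPM in scRNA-seq, and IBA held 222 CPM in batch 8_8, 43.4 in batch 9_1 and 109.8 in the batch labelled scRNA. All 5 lay above the RAW_Mock sums of 0.462, 0 and 0.0583 CPM, and the log2 difference was 11.74 (SE 0.84, adjusted p = 6e-05). No RAW_LPS cell of scRNA-seq had a read, which allows a share of up to 2.01% of cells with one if 3 cells are taken as the limit of a count of 0 (2.45% as the exact 95% upper limit), and in Live-seq 1 of 50 did. In Live-seq ASPC_Pre held 191.04 and 368 CPM in batches 8_8 and 9_4 and IBA 109.7, 161.05 and 40.1 CPM in batches 7, 8_8 and 9_4, and no count was seen in RAW_Mock. Inhba was thus 2250-fold above that group's floor of 3 counts, and it passed (adjusted p = 0.0313).

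IBA cells held less Inhba than ASPC_Pre in every batch that had both states, in either technique. In scRNA-seq the sums did not overlap, and on the log2 scale Inhba fell by 2.55 (SE 0.63, adjusted p = 0.0439). Without batch 9_1 the difference was -1.32 (adjusted p = 0.223) and without the batch labelled scRNA it was -2.57 (adjusted p = 0.0922), so the call rests on each of these batches. The Live-seq difference of -1.98 did not pass (SE 1.61, adjusted p = 1.0). The IBA cells of batch 8_1 that were not probed, a batch without ASPC, held 692 CPM of Inhba, above every ASPC_Pre sum of either technique, so the lower level in IBA did not extend to that batch.

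Ltbp1 (ENSMUSG00000001870, chr17:75005568-75392512, plus strand), which encodes a tether of latent TGF-beta, had its highest levels in IBA cells. Its IBA sums were 262, 117.4 and 151.1 CPM in batches 8_8, 9_1 and scRNA, and its ASPC_Pre sums were 94.6 and 66.6 CPM. RAW_Mock held 0.693, 0 and 0.146 CPM. The mesenchymal level was 9.81 higher on the log2 scale (SE 0.72, adjusted p = 1.61e-05), and Live-seq passed as well (11.38, SE 1.63, adjusted p = 0.00534). IBA sums lay above ASPC_Pre sums in both techniques, at 202 to 327 against 29.5 to 36.7 CPM in Live-seq, but neither difference passed (adjusted p = 0.389 in scRNA-seq and 1.0 in Live-seq). The gene reached nearly every IBA cell, with reads in 95.4% of IBA cells (95% exact interval 90.8 to 98.1) against 55% of ASPC_Pre cells (41.6 to 67.9) in scRNA-seq. With each cell thinned to 50000 counts the shares were 90.2% and 35%. In RAW_Mock, which serves as the background, 3.82% of cells had a read at a median depth of 433219 counts, beside 467990 in IBA and 722319 in ASPC_Pre.

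**Figure D2:**
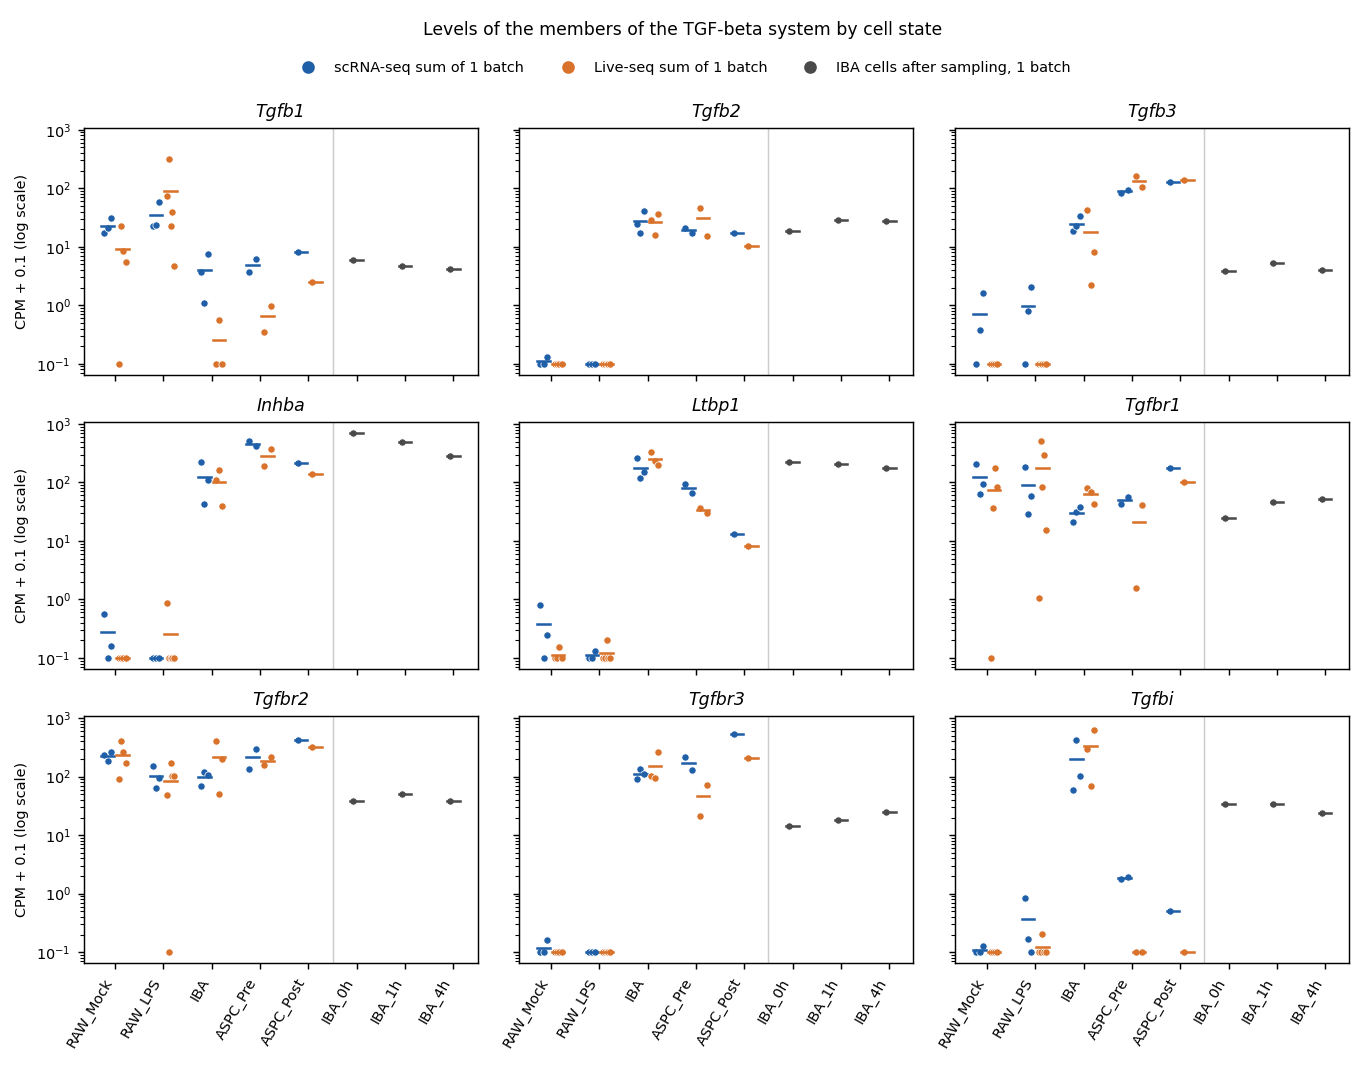
Each panel plots 1 gene as CPM + 0.1 on a log axis for 5 states and, to the right of the grey line, for IBA cells at 0, 1 and 4 h. Points are sums of 1 batch, bars are their means, and blue, orange and dark grey stand for scRNA-seq, Live-seq and cells after sampling. Tgfb2, Inhba, Ltbp1 and Tgfbr3 lie near the bottom in RAW states and above 8 CPM in every IBA and ASPC state, whereas Tgfbr1 and Tgfbr2 span all states.

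Neither signalling receptor passed the test between the cell classes. Tgfbr1 (ENSMUSG00000007613, chr4:47353222-47414931, plus strand), the type I kinase, was 207, 64.3 and 95.5 CPM in the RAW_Mock sums of batches 8_8, 9_1 and scRNA. IBA sums held 21.1, 31.5 and 37.2 CPM and ASPC_Pre sums 43.3 and 56.4 CPM. All lay below RAW_Mock, at a log2 difference of -1.17 (SE 0.54), which did not pass (adjusted p = 0.109) but did with cells thinned to 50000 counts (adjusted p = 0.0214) and without batch 9_1 (adjusted p = 0.0251). Live-seq sums ran from 1.5 to 81.5 CPM in mesenchymal cells and from 0 to 177 CPM in RAW_Mock and overlapped.

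Tgfbr2 (ENSMUSG00000032440, chr9:116084293-116175360, minus strand), the type II kinase that binds ligand, was present in all states. In scRNA-seq RAW_Mock held 232, 188.1 and 266 CPM, IBA 68.6, 119.7 and 108.6 CPM, and ASPC_Pre 135.2 and 299.5 CPM. The mesenchymal and RAW_Mock sums overlapped and the difference was -0.38 on the log2 scale (SE 0.39, adjusted p = 0.457). Without batch 9_1 it was -1.11 and passed (adjusted p = 0.0382), and without batch 8_8 it was 0. IBA sums lay below both ASPC_Pre sums, yet the log2 difference of -1.49 did not pass (SE 0.49, adjusted p = 0.077). It did pass in DESeq2 (adjusted p = 0.0242), in the thinned counts (0.0368), in the newer quasi-likelihood fit (0.0455) and without batch 8_8 (0.028).

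Tgfbr3 (ENSMUSG00000029287, chr5:107106570-107289629, minus strand), the co-receptor betaglycan, followed the ligands of the mesenchymal cells and not the other 2 receptors. IBA sums held 90.7, 136.8 and 109.3 CPM and ASPC_Pre sums 213 and 128.4 CPM in scRNA-seq, while 2 reads were counted over all RAW_Mock cells and none over all RAW_LPS cells. The CPM ratio over pooled cells was 4060 (counting interval 1120 to 33500), and the test passed (adjusted p = 1.45e-05). Live-seq passed too (adjusted p = 0.0385), at 1230-fold above the floor of 3 counts over RAW_Mock. Tgfbr3 shares 297 exon bases with Gm43422 on the same strand, and reads that overlap both are missing from its counts for the same reason as in Tgfb2.

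Tgfbi (ENSMUSG00000035493, chr13:56609523-56639562, plus strand), an extracellular matrix protein named for its induction by TGF-beta, marked IBA cells among the members. Its scRNA-seq IBA sums were 59.6 CPM in batch 8_8, 430 in batch 9_1 and 103.2 in the batch labelled scRNA, against 1.7 and 1.85 CPM in ASPC_Pre. On the log2 scale IBA was 6.58 higher (SE 1.11, adjusted p = 0.00967). Live-seq IBA sums held 70.1, 299 and 620 CPM and no read was counted in 61 ASPC_Pre or 37 ASPC_Post cells. IBA was thus 2450-fold above a floor of 3 counts over ASPC_Pre. The Live-seq test did not pass (adjusted p = 0.53). In scRNA-seq 83.7% of IBA cells and 20% of ASPC_Pre cells had a read, and 0.637% of RAW_Mock cells did, with 75.2%, 10% and 0% at 50000 counts per cell. Without batch 9_1 the scRNA-seq difference was 5.57 and did not pass (adjusted p = 0.183).

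Between IBA and ASPC_Pre, 3 of 9 members passed in scRNA-seq (Tgfbi higher, Tgfb3 and Inhba lower in IBA), against 11.4% of all genes, and the median log2 difference was -1.02 over the members and -0.11 over all genes. The count fell to 0 without batch 9_1 and to 1 without the batch labelled scRNA. No member passed in Live-seq, where 0.0171% of genes passed and 1 member, Tgfbi, had an unadjusted p under 0.05. The mesenchymal and IBA comparisons share the IBA and ASPC_Pre sums. In Live-seq the 3 calls against RAW_Mock (Inhba, Ltbp1 and Tgfbr3) were lost without batch 7, without batch 8_8 and without batch 9_4, with 0 members passing each time, whereas the fitted differences stayed between 10.81 and 13.77 on the log2 scale.

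**Figure D3:**
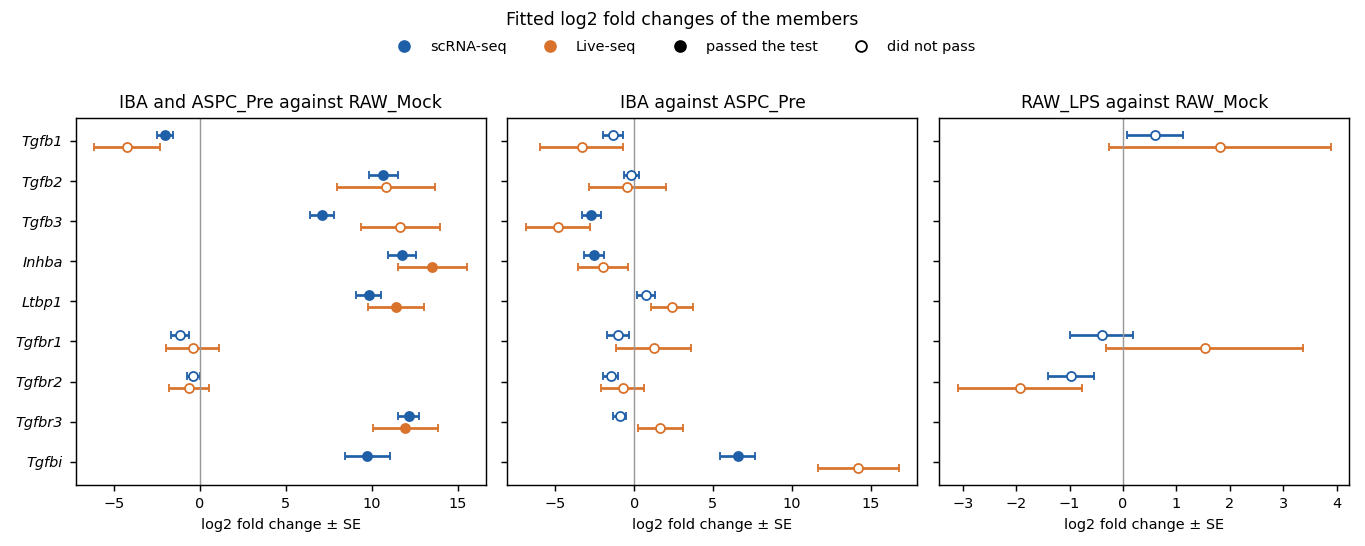
Points are fitted log2 fold changes and bars their standard errors, derived from the F statistic of the test. Blue is scRNA-seq and orange Live-seq, in 3 comparisons whose first-named group is to the right of 0. Filled points passed the test. The right panel is limited to Tgfb1, Tgfbr1 and Tgfbr2. In the left panel Tgfbi has no Live-seq point because its fit gave no standard error. In scRNA-seq 6 members sit at 7.1 or above in the left panel, and Tgfbi is the one filled point to the right of 0 in the middle panel.

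Lipopolysaccharide, a bacterial product that activates macrophages, was compared with PBS in RAW cells. No member passed in scRNA-seq, where 1.25% of all genes did, and 1 member, Tgfbr2, had an unadjusted p under 0.05. No member and 0.0% of all genes passed in Live-seq in edgeR, where 0 members and 549 genes had an unadjusted p under 0.05. DESeq2 called 453 genes in the same Live-seq sums and no member. The response to the treatment could be read in Tnf, Il1b, Cxcl2 and Ccl4, which summed to 2840 to 8410 CPM in scRNA-seq RAW_LPS sums and to 99.1 to 964 CPM in RAW_Mock.

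Tgfbr2 was the one member lower after lipopolysaccharide in every batch of both techniques. In scRNA-seq RAW_LPS held 150.6, 64.4 and 96.5 CPM in batches 8_8, 9_1 and scRNA, each below the RAW_Mock values of 232, 188.1 and 266 CPM. In Live-seq the RAW_LPS sums were 0, 174, 101.4 and 102.9 CPM in batches 6, 7, 8_8 and 9_4, and the mock sums of these batches were 89.5, 405, 259 and 172 CPM. The scRNA-seq groups did not overlap and the Live-seq groups did. In Live-seq 1 cell gave 99.3% of the mock reads of batch 6, and 1 cell 97.2% of the RAW_LPS reads of batch 8_8. In the mock sums of batches 7, 8_8 and 9_4 that share was 17.4% to 45.7%. In RAW_LPS it was 40% in batch 7 and 39.4% in batch 9_4. The wild-type cells of batch 5Reseq had 49.3 CPM after lipopolysaccharide and no mock sum of their own. The log2 differences were -0.98 (SE 0.43, unadjusted p = 0.0469, adjusted p = 0.332) in scRNA-seq and -1.93 (SE 1.16, adjusted p = 1.0) in Live-seq. Of 11659 genes in both techniques, 4.66% were lower in all 7 batch pairs, so 1 of 9 members in this pattern is not a result about the members. Cells with a Tgfbr2 read made up 95.5% of RAW_Mock and 77.9% of RAW_LPS in scRNA-seq, or 92.3% and 66.4% at 50000 counts per cell.

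Tgfb1 and Tgfbr1 moved less evenly. Tgfb1 in scRNA-seq was 22.5, 23 and 58.9 CPM in RAW_LPS and higher than mock in each of the 3 batches, but the difference of 0.6 on the log2 scale was about the size of its SE of 0.52 (adjusted p = 0.682). In Live-seq it was 316, 22.2, 38.4 and 4.56 CPM in batches 6, 7, 8_8 and 9_4, higher than mock in 2 batches and lower in 2. Tgfbr1 was 183, 28.4 and 59.3 CPM in RAW_LPS in scRNA-seq, lower than mock in each batch (log2 difference -0.40, SE 0.59, adjusted p = 0.855). In Live-seq it was higher in 3 of 4 batches (1.53, SE 1.84, adjusted p = 1.0). The remaining 6 members stayed at or below 1.93 CPM in every RAW sum.

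Adipogenic induction was present in 1 batch of each technique, so the values have no replicate check and no test. Adipocyte genes (6 genes, including Pparg, Fabp4 and Lpl) summed to 738 CPM after and 123.7 CPM before in scRNA-seq, and to 441 and 115.6 CPM in Live-seq, with no read of Adipoq, a gene of mature fat cells. The same genes summed to 569 CPM in the other scRNA-seq ASPC_Pre sum, to 0.499 CPM in the other Live-seq one and to 14.7 to 2470 CPM in RAW sums, so their sum did not set the induced cells apart from all other states. In scRNA-seq 4 of 9 members differed by more than 2-fold, 2 in each direction, and in Live-seq 5 of the 8 members with counts did, 3 higher and 2 lower. More than 2-fold was also reached by 30.2% of all genes in scRNA-seq and 33.8% in Live-seq, beside 44.4% and 62.5% of the members with counts, which are few.

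The receptors were higher after induction in both techniques. Tgfbr3 was 540 CPM after and 128.4 CPM before in scRNA-seq, a ratio of 4.2 (95% counting interval 4.04 to 4.38), and 208 against 72.3 CPM in Live-seq (2.88, 2.69 to 3.08). Tgfbr1 was 177 against 56.4 CPM (3.14, 2.94 to 3.35) and 100.1 against 41.2 CPM (2.43, 2.22 to 2.67). Tgfbr2 was 416 against 299.5 CPM and 323 against 216 CPM, ratios of 1.39 and 1.5. These intervals, like all counting intervals here, cover counting error only, since reads carry no molecular identifiers and cells of 1 culture vary. Reads of Tgfbr1 were found in 88.6% of ASPC_Post cells and 70.5% of ASPC_Pre cells of that scRNA-seq batch, and reads of Tgfbr3 in 100% and 84.1%.

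Ltbp1 and Inhba were lower after induction. Ltbp1 went from 66.6 to 13.1 CPM in scRNA-seq and from 29.5 to 8.2 CPM in Live-seq, so that ASPC_Pre held 5.08 times (4.41 to 5.86) and 3.6 times (2.96 to 4.4) the later level. Inhba went from 417 to 216 CPM and from 368 to 138.9 CPM, with ASPC_Pre at 1.93 and 2.65 times the later level. Tgfb3 was slightly higher after induction, at 129.0 against 94.1 CPM and 136.1 against 102.9 CPM. Tgfb2 was 17 against 16.8 CPM in scRNA-seq and 10.1 against 15.3 CPM in Live-seq, where 74.7% of the later reads came from 1 cell. Tgfb1 was 8.01 against 5.96 CPM in scRNA-seq, and in Live-seq it rested on 38 reads after and 14 before. Tgfbi had 7 reads after and 45 before in scRNA-seq and none in Live-seq.

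Of the 37 ASPC_Post cells of Live-seq, 24 had been sampled before and 13 had not, and the values without the former were added after the data were seen. With only the 13, the log2 ratio to ASPC_Pre was 2.03 for Tgfbr3, 1.36 for Tgfbr1 and 1.05 for Tgfbr2, as against 1.52, 1.28 and 0.58 with all cells. For Inhba it was -0.79 as against -1.41, and for Ltbp1 -0.56 as against -1.85. For Tgfb2 the value was 0.81 as against -0.6, the opposite sign. The number of members over 2-fold was 4 with only the 13 (the 3 receptors and Tgfb1, all higher) and 5 with all cells, and Inhba and Ltbp1 were then under 2-fold.

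**Figure D4:**
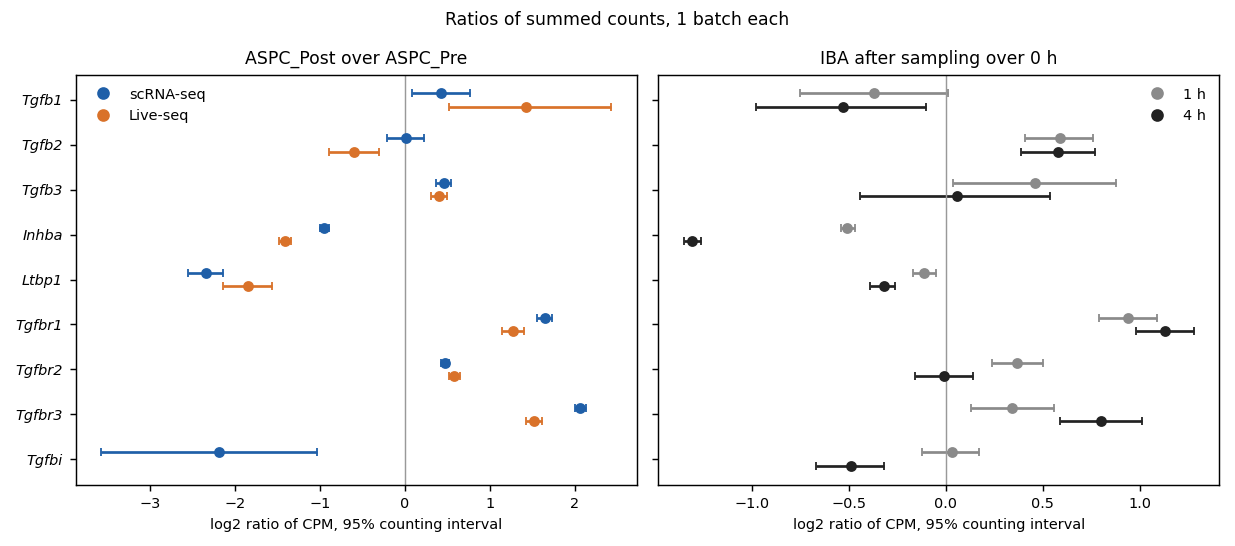
Points are log2 ratios of CPM in summed counts of 1 batch and bars are 95% counting intervals. The left panel gives ASPC_Post over ASPC_Pre in scRNA-seq (blue) and Live-seq (orange), with Tgfbr1 and Tgfbr3 to the right of 1 and Ltbp1 at -2.34 and -1.85. The right panel gives IBA cells 1 h (grey) and 4 h (black) after sampling over 0 h, with Inhba at -0.51 and -1.31 and Tgfbr1 at 0.94 and 1.13.

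In 9 ASPC, both the first and the second sampling of the same cell gave a library, before and after 2 days of induction. Inhba was lower the second time in 9 of 9 cells. Before induction every one of them had reads, from 142.9 to 1320 CPM with a median of 223, and afterwards 4 had reads, from 0 to 1040 CPM with a median of 0. Tgfb3 was higher in 6 of 9 cells, with reads in 7 cells before (0 to 937 CPM) and in 8 after (0 to 483 CPM, median 176). The receptors, higher in the sums, were not higher in most of these 9 cells. Tgfbr3 was lower in 6, with medians of 56.9 and 9.41 CPM, and Tgfbr2 was lower in 5 and higher in 4. Tgfbr1 was lower in 5, higher in 3 and at 0 in both libraries of 1, with medians of 35.5 and 0 CPM. Tgfb1 and Tgfbi had no read in any of the 18 libraries. The pairs are those of the labels, which give more than the study describes as matched by barcode, and which of them it left out is not in the labels. Each second library came from a cell that had been both induced and sampled before, so these cannot be told apart in the pairs. The 9 cells came from 1 batch and the paired values are given without a test.

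**Figure D5:**
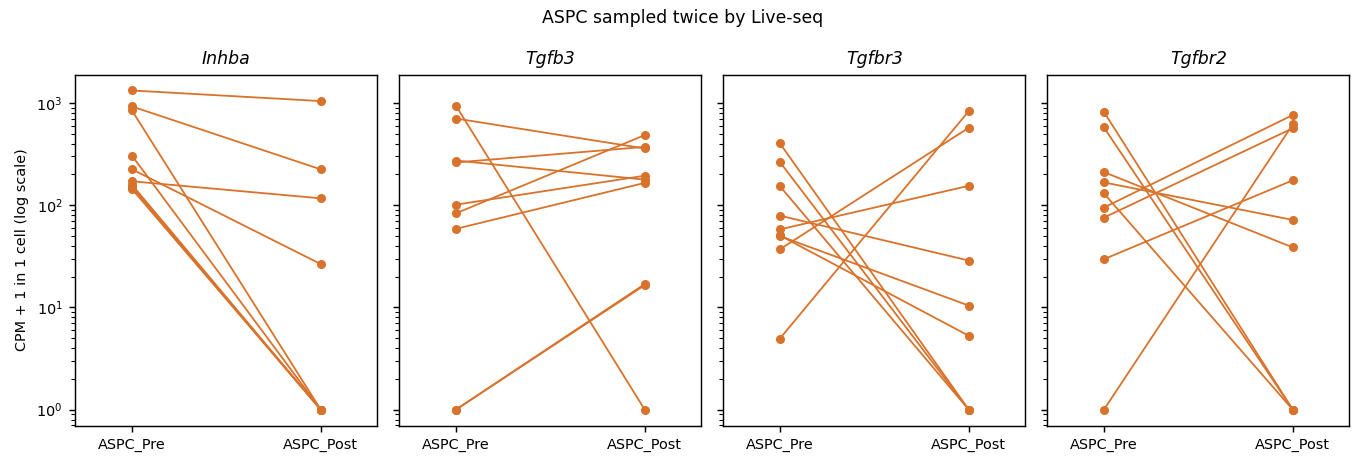
Each line joins the 2 Live-seq libraries of 1 ASPC, before and after induction, as CPM + 1 on a log axis, for 4 members in 9 cells. All 9 lines fall for Inhba, and for Tgfb3, Tgfbr3 and Tgfbr2 lines run in both directions.

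Of 4 RAW cells with libraries from before and after lipopolysaccharide, 1 was left out because both its libraries are labelled as the first extraction. In the other 3, Tgfb1 had reads in 2 cells before and 3 after and was lower in 2 of 3. Tgfbr2 was higher in 1, lower in 1 and at 0 in both libraries of the other cell. The other members had no read. In these cells too, the treatment and the earlier sampling cannot be told apart.

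IBA cells lysed after cytoplasm was drawn came from batch 8_1 alone, so the time after sampling and any other difference between the 3 sets cannot be told apart. Mesenchymal genes summed to 1250, 1220 and 1350 CPM at 0, 1 and 4 h and macrophage genes to 4.43, 5.03 and 10.9 CPM. At 1 h 0 of 9 members differed by more than 2-fold from 0 h, while 15.7% of all genes did. At 4 h 2 of 9 did (Tgfbr1 higher and Inhba lower), beside 17.7% of all genes.

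Inhba was 692 CPM at 0 h, 486 at 1 h and 280 at 4 h, and the 0 h level was 1.42 times (95% counting interval 1.39 to 1.46) that at 1 h and 2.47 times (2.39 to 2.56) that at 4 h. Per cell the medians were 359.9, 339.9 and 119.7 CPM, with middle ranges (between quartiles) of 176 to 972, 193.8 to 586 and 75 to 359 CPM, which overlap between times. Tgfbr1 was 24.1, 46.1 and 52.8 CPM, and reads were found in 50%, 75.5% and 76.7% of cells, or 30.9%, 55.1% and 58.1% at 50000 counts per cell. The ratio to 0 h was 1.91 (1.73 to 2.12) at 1 h and 2.2 (1.97 to 2.44) at 4 h. Tgfbr3 was 14.2, 18 and 24.7 CPM, Tgfbr2 38.3, 49.5 and 38 CPM, and Ltbp1 222, 206 and 178 CPM. Tgfb2 was 18.7, 28 and 27.9 CPM, Tgfbi 33.4, 34.1 and 23.8 CPM, and Tgfb1 and Tgfb3 stayed at or below 5.9 CPM.

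A list of 45 further genes of the pathway, also chosen with earlier results of these data known, was read beside the members. Of 44 tested in scRNA-seq, 29 were higher and 2 lower in mesenchymal cells than in RAW_Mock, with a median log2 difference of 3.0 against 0.2 over all genes tested. These 31 calls were 70.5% of the list, beside 38.2% of all genes, of which 3371 of 13402 were higher. By role, 10 of 11 target genes, 9 of 11 inhibitors and feedback genes and 6 of 10 latency and activation genes were higher. So were 3 of 5 SMAD genes and 1 of 7 in a group of activin ligand and family receptor genes that includes Acvrl1 and Eng. Among those with the largest changes, Ccn2, a matricellular target, was 343 ± 233.5 CPM (SD, n = 5) against 0 in RAW_Mock (adjusted p = 0.000144). Lrrc32, which holds latent TGF-beta at the cell surface, was 328 ± 366 CPM against 0 (adjusted p = 2.26e-05), and Postn, a matrix target, was 406 ± 454 CPM (SD, n = 5) against 0.0261 CPM (adjusted p = 3.15e-05).

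The 2 lower genes were Nrros, which holds latent Tgfb1 on myeloid cells, and the activin receptor gene Acvr2b. Nrros was 0.508 ± 1.05 CPM in mesenchymal sums and 359 ± 17 CPM in RAW_Mock (SD, n = 5 and 3, log2 difference -10.25, adjusted p = 8.07e-05). In Live-seq it was 338 ± 231 CPM in RAW_Mock and 0.0876 CPM in mesenchymal sums (adjusted p = 0.000767). Acvr2b was 0.55 against 19 CPM in scRNA-seq (adjusted p = 0.00255). Live-seq had 12 of 43 list genes higher and 1 lower, 30.2% of the list beside 3.31% of all genes, led by Fn1 (1370 ± 962 CPM against 0, adjusted p = 0.00332), Thbs1 (1750 ± 1720 CPM, adjusted p = 0.000283) and Col1a1 (2650 ± 1890 CPM, adjusted p = 0.00114), all SD with n = 5.

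Between IBA and ASPC_Pre, 1 list gene was higher and 13 were lower in IBA in scRNA-seq, with a median log2 difference of -1.12 against -0.11 over all genes. These were 31.8% of the list, beside 11.4% of all genes (505 higher and 1019 lower), and the number of all genes fell from 1524 to 51 without batch 9_1 and to 443 without the batch labelled scRNA. Acvrl1, a type I receptor of the family, was 1.34 ± 2.05 CPM in IBA and 49.7 ± 28.7 CPM in ASPC_Pre (SD, n = 3 and 2, adjusted p = 0.00461). Its co-receptor gene Eng was 3.03 ± 1.36 against 175.7 ± 63.5 CPM (adjusted p = 0.00448), and Fst, whose product binds and neutralises activin, was 11.4 ± 11.6 against 162.8 ± 107.5 CPM (adjusted p = 0.00893). Of the target genes, Ccn2, Acta2, Tagln and Cdkn1a were among those lower in IBA, and Junb was higher, at 573 ± 230 against 139.6 ± 11.3 CPM (adjusted p = 0.0148). No list gene passed in Live-seq.

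After induction of ASPC, 8 list genes were more than 2-fold higher and 6 lower in scRNA-seq, and 6 and 6 in Live-seq. That was 31.8% and 27.9% of the list, close to the 30.2% and 33.8% of all genes, and is not a result about the list. Acta2, smooth muscle actin and a target in fibroblasts, went from 3910 to 284 CPM in scRNA-seq and from 6860 to 494 CPM in Live-seq. Tagln went from 109.8 to 17.5 and from 85.3 to 12 CPM, and Thbs1, an activator of latent TGF-beta, from 6350 to 1310 and from 2460 to 729 CPM. Ltbp3 went from 36.2 to 157.6 CPM and from 23.7 to 93.9 CPM, the opposite direction to Ltbp1. In IBA cells after sampling, 8 list genes were over 2-fold higher and 5 lower at 1 h, and 5 and 7 at 4 h. That was 29.5% and 27.3% of the list beside 15.7% and 17.7% of all genes, in 1 batch and without a test. Some of these genes had few reads. At 1 h and 0 h, Dcn had 494 and 12, Eng 115 and 13, and Acvr2b 23 and 7. Lower at 1 h were Acvr1b, with 12 and 71, and Acvrl1, with 12 and 43. The paper tested these cells and found few genes that differed among the 3 sets. Acta2 was 814, 2790 and 1170 CPM at 0, 1 and 4 h, and Id1, an early SMAD target, 337, 132.2 and 95.6 CPM. These single-batch genes were named after their values were seen.

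Across the 12 scRNA-seq sums, the genes most like each member were found by Pearson's r of log2(CPM + 1) over 13402 genes. The 12 points share batches and cell types, so that r mostly separates mesenchymal from RAW sums, and it carries no p-value. Inhba was nearest to Adam19, Zfp365 and Ccn2 (r = 0.996, 0.995 and 0.995), and Ltbp1 to Prkg2, Ccn4 and Ankrd1 (0.995, 0.995 and 0.994). Tgfbr3 was nearest to Bmp1, Cdh2 and Steap2 (0.998, 0.997 and 0.997), Tgfb2 to Evc2, Yes1 and Cpe (0.999, 0.997 and 0.997), and Tgfb3 to Sorbs3, Ephx1 and Slit2 (0.988, 0.986 and 0.985). Tgfbi, which splits the mesenchymal states, was nearest to Wnt10b, Tusc3 and Gm39307 (0.987, 0.983 and 0.978). Tgfb1 was nearest to Canx, Trmt61a and Papola (0.97, 0.961 and 0.952).

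The 2 signalling receptors had weaker neighbours. Tgfbr1 was nearest to Slc38a10, Rassf2 and Sil1 (0.91, 0.908 and 0.904) and Tgfbr2 to Bicra, Acox3 and Slc38a10 (0.907, 0.905 and 0.9), so that Slc38a10 was among the 3 nearest genes of both. Between members, r was 0.97 for Tgfbr3 with each of Tgfb2, Tgfb3 and Inhba, 0.74 for Tgfbr1 with Tgfbr2, and -0.89 for Tgfb1 with Ltbp1.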

How the data were processed

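Each sample was 1 cell. The authors demultiplexed 75 bp reads with bcl2fastq 2.19.1, aligned them to mm10 with STAR 2.6.1c and counted them per gene with HTSeq 0.10.0, without strand and in union mode, on Ensembl release 87, and they deposited raw counts for 30452 features in 1 table. Live-seq libraries had 24 PCR cycles and scRNA-seq libraries 18. The members and gene lists were chosen with earlier results of these data known. After leaving out 20 genes counted in negative controls and 92 ribosomal protein genes (a median of 24.073% of counts in Live-seq and 24.687% in scRNA-seq), counts were summed per state and batch of at least 3 cells. edgeR 4.0.16 in R 4.3.3 fitted state and batch by the quasi-likelihood test with TMM scaling over 12 scRNA-seq sums (13402 genes) and 15 Live-seq sums (11666 genes), with Benjamini-Hochberg adjustment over all genes. A gene passed at an FDR under 0.05 and an absolute log2 fold change over 1. Each SE was derived from the test, as the absolute log2 fold change over the square root of its F statistic.

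Batch was a term of the main fit, so no sample entered as a pair by number. Deviations from state means correlated at 0.083 to 0.406 over 15 scRNA-seq pairs of the same batch and at -0.066 to 0.226 over 16 Live-seq pairs. In data simulated with 200 genes changed by a log2 value of 3, 85% were recovered for IBA against ASPC_Pre and 96% for RAW_LPS against RAW_Mock in scRNA-seq, and 0% for both in Live-seq, whose dispersion was 1.44 against 0.184. Groups of 1 batch were compared by CPM with exact 95% counting intervals and no test. Shares of cells have exact binomial intervals, and thinned shares use 50000 counts per cell, for which 6 cells were too shallow. A fold against a group without reads uses a floor of 3 counts over the group. It ignores that reads cluster by cell and is not a lower limit. Total counts per library were 64547 to 1603790 in Live-seq and 41030 to 2671609 in scRNA-seq. All 9 members are named, of the pathway list the 3 with the largest change in each direction that passed and moved the same way in every batch, and for likeness the 3 nearest genes of each member. Alternatives were DESeq2 1.42.0, relative log expression scaling, the newer quasi-likelihood fit, no filter on low counts, the control and ribosomal genes kept, thinned cells, no batch term and each batch left out. Promoter sequences came from RefSeq on GRCm38.p6, in which 7 of 9 members matched. Gene positions and exon lengths came from GENCODE on the same build. One result of the pathway list is not reported here.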

Additional observations from a re-analysis of the deposited data

Results flagged for a closer look

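Tgfb1 in Live-seq RAW_LPS stood apart in batch 6, at 316.3 CPM against 73.4 CPM in the next of 5 sums, a gap of 0.779 of the whole range. That sum held 4 cells, and 99.8% of its Tgfb1 reads came from 1 of them. Of 6 groups of members checked in this way 1 stood apart. How often chance gives such a gap in sums that can rest on 1 cell was not tested.

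Tgfbr1 was lower in IBA than in ASPC_Pre in both scRNA-seq batches that hold the 2 states (log2 difference -1.02). In the 2 such Live-seq batches it was higher (1.24), but in batch 9_4 hardly so, at 42.8 against 41.2 CPM. In Live-seq batch 8_8 it was 67.8 against 1.5 CPM, and the ASPC_Pre value rested on 6 reads of 1 cell. Leaving out 1 batch at a time moved the Live-seq difference between 0.08 and 6.32. The difference between the techniques was not tested. In Live-seq batch 8_8, 95.6% of the Tgfbr1 reads of IBA cells came from 1 cell.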

How the results depend on the processing

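Of the members' tested values, 434 kept their side of the threshold and their direction, 15 passed and 16 failed under an alternative, and 6 turned. With no replicate block the scRNA-seq fit of IBA against ASPC_Pre called 908 genes and 1 member, since Tgfb3 and Inhba had adjusted p of 0.169 and 0.0787, and the newer quasi-likelihood fit called 2538 genes. For RAW_LPS in scRNA-seq the counts of all genes were 698 with DESeq2, 426 thinned, 429 with the newer fit, 276 with no filter and 35 with no replicate block. Live-seq mesenchymal against RAW_Mock called 1677 genes and 5 members with DESeq2, 1310 and 5 with the newer fit, 940 and 5 with no replicate block, and 757 genes thinned. Live-seq IBA against ASPC_Pre called 198, 9, 11, 22 and 13 genes with DESeq2, the newer fit, no replicate block, thinning and no filter, and Live-seq RAW_LPS called 453, 5, 13 and 1 with DESeq2, the newer fit, thinning and no filter.

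At 1 h after sampling 1 member was over 2-fold with a mean over cells and 1 with thinned cells. The log2 difference of Tgfb2 between IBA and ASPC_Pre in scRNA-seq turned to 0.24 thinned and 0.3 with no replicate block, that of Tgfbr2 in Live-seq mesenchymal cells to 0.09 with no replicate block, and that of Tgfb1 after induction in Live-seq to -0.2 thinned. Leaving out 1 batch at a time gave 51 to 1566 genes and 0 to 4 members for scRNA-seq IBA against ASPC_Pre, 0 to 24 genes for scRNA-seq RAW_LPS, 25 to 520 genes and 0 to 3 members for Live-seq mesenchymal cells, and 0 to 3 genes for Live-seq IBA against ASPC_Pre. It moved Tgfbr2 in scRNA-seq mesenchymal cells from -1.11 to 0.0, Tgfbr1 in Live-seq mesenchymal cells from -2.36 to 0.52 and Tgfb2 in Live-seq IBA against ASPC_Pre from -1.61 to 0.74. The cause of these changes was not tested. Reads of a member in a Live-seq sum often came mostly from 1 cell, and in simulated Live-seq sums no changed gene was recovered, so a member that did not pass there may still differ.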

Other observations

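Levels of Tgfbi and Inhba ran in opposite orders over the 7 sums of IBA cells. In the 0 h cells of batch 8_1, Tgfbi was 33.4 CPM and Inhba 691.9 CPM. In the other 6 sums, ordered by Tgfbi, its levels were 59.6 (scRNA-seq 8_8), 70.1 (Live-seq 8_8), 103.2 (batch scRNA), 299.2 (Live-seq 7), 430 (scRNA-seq 9_1) and 620 CPM (Live-seq 9_4). Inhba in these sums was 221.8, 161.05, 109.8, 109.7, 43.35 and 40.12 CPM. The pair of genes was chosen after the values were seen, the sums mix 2 techniques, and no test was made. The summed mesenchymal markers were 1250 CPM at 0 h and 1910 to 11900 CPM in the other 6 sums.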
